A study of Mus musculus with 14 samples.

Results

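The adult globin genes of the mouse, Hba-a1, Hba-a2, Hbb-bs and Hbb-bt, were followed through all 8 RNA-seq libraries of a study of Dpy30 loss in bone marrow cells. The 4 genes were taken by symbol from the 38926 gene entries of the LSK and MyePro files and by Ensembl ID from the 39179 gene entries of the LT-HSC files, and no expression minimum was applied to them. They were chosen by name with KO and control values of these libraries already known, so their levels and ratios are given as a description. The p-values of the LT-HSC fit show the size of a difference against the spread between libraries and support nothing further.

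DPY30 is a core subunit of the SET1 and MLL complexes, which methylate histone H3 on lysine 4. KO libraries came from Mx1-Cre; Dpy30F/- donors, with a floxed and a null allele, and control libraries from Mx1-Cre; Dpy30F/+ donors, with a floxed and a wild-type allele. Every group thus carried Mx1-Cre, which interferon signalling switches on in many cell types. Donor marrow was mixed with CD45.1+ C57Bl/6J competitor marrow and put into irradiated CD45.1+ recipients. All recipients, KO and control alike, were given 4 injections of pIpC (7.5 µg/g) over 10 days, from 7 weeks after transplantation, and marrow was taken 2 weeks after the last injection. The sorted populations were LT-HSC (long-term hematopoietic stem cells; 2 KO and 2 control libraries from transplants 1 and 2, each a pool of 7 to 9 mice, RNA amplified), LSK cells (lineage-negative marrow positive for SCA-1 and KIT, where stem and multipotent cells lie) and MyePro cells, a name the labels do not spell out. Lineage-positive marrow was depleted with magnetic beads before each sort. LSK and MyePro had 1 KO and 1 control library each, from pools of 2 to 3 mice, without amplification. The labels call the LT-HSC donor-derived, and give neither a donor gate for LSK and MyePro, nor the age or sex of donors, nor the MyePro gate.

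Hemoglobin is a tetramer of alpha chains, encoded by Hba-a1 and Hba-a2, and beta chains, which in mice of the Hbb-s haplotype are encoded by Hbb-bs and Hbb-bt, and each chain holds a heme group. Their transcription rises steeply as committed erythroid cells mature, under GATA1 and the CACCC-binding factor KLF1, and these are among the most abundant RNAs of late erythroblasts and reticulocytes. The alpha genes lie on chromosome 11 (GRCm38.p6; Hba-a1, ENSMUSG00000069919, 32283672 to 32284486; Hba-a2, ENSMUSG00000069917, 32296492 to 32297310). The beta genes lie on chromosome 7 (Hbb-bs, ENSMUSG00000052305, 103826523 to 103827928; Hbb-bt, ENSMUSG00000073940, 103812524 to 103813923).

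The 130 bases before each start site are shown because they carry the elements that the 4 genes share, and because they show how alike the copies are. They come from RefSeq on GRCm38.p6 and run 5′ to 3′ on the strand of the gene, at chr11:32283542-32283671 (plus strand) for Hba-a1, chr11:32296362-32296491 (plus) for Hba-a2, chr7:103827929-103828058 (minus) for Hbb-bs and chr7:103813924-103814053 (minus) for Hbb-bt. Capitals mark the TATA box letters ATATAA, the CCAAT box, the CACCC box and the GATA motif, on either strand. The printed windows of Hba-a1 and Hba-a2 hold no GATA motif. Theirs lie outside, at 182 to 179 and 185 to 182 bases before the start.
Hba-a1: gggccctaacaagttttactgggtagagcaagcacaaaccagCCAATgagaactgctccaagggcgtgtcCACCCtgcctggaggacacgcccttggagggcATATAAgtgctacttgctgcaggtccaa
Hba-a2: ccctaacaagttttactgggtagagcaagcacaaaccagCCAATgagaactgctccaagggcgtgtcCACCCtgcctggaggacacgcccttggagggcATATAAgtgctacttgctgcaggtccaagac
Hbb-bs: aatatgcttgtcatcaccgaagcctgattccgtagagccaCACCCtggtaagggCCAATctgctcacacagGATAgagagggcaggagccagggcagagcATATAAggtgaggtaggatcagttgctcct
Hbb-bt: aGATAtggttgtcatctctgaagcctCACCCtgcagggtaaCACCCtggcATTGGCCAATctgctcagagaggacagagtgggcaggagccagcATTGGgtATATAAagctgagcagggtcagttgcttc

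The RefSeq windows of Hba-a1 and Hba-a2, 300 bases around the start site, were identical over all 297 bases that overlap at an offset of 3. The windows of Hbb-bs and Hbb-bt were identical at 219 of 293 aligned bases (74.7%). In the 250 bases before the start, each of the 4 genes had all of these motifs on one strand or the other. Among 32851 promoters of that length, 9.10% held ATATAA, 33.8% held the CCAAT box, 52.0% held the CACCC box and 53.6% held the GATA motif. ATATAA, the CCAAT box and the CACCC box stood together in 1.36%. The motifs do not overlap each other in the printed windows, where 1 CCAAT box of Hbb-bt adjoins a reversed one. These matches describe letters and not bound sites.

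Near-identical copies limit what the counts say of each gene. Reads aligned to more than 1 place were listed apart from the genes and made up 23.9% to 37.9% of the file totals, and reads overlapping more than 1 gene 0.771% to 2.76%. How many of those came from globin transcripts is unknown, so the counts of Hba-a1 and Hba-a2 in particular are uncertain, and the sums of the pairs are given beside them. The shallowest library held 6130320 gene counts (KO LSK) and the deepest 85499797 (KO LT-HSC 1). All intervals below are 95% exact intervals, and they cover counting error only.

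The targeted gene, Dpy30, stood at 45.7 CPM (counts per 1000000 gene counts) in KO LSK against 76.7 CPM in control LSK, and at 51.1 CPM in KO MyePro against 109 CPM in control MyePro. In LT-HSC it stood at 14.1 and 4.67 TMM-normalized CPM (CPM after edgeR's scaling for library composition) in the libraries labelled KO of transplants 1 and 2, against 12.9 and 8.43 in control. By that measure transplant 1 showed no lower Dpy30 in the library labelled KO, while in CPM over all gene counts both libraries labelled KO, at 8.17 and 5.87, lay below the controls, at 15.6 and 9.59. Xist, the X-inactivation RNA, had 1256 and 1893 CPM in the libraries labelled KO of LT-HSC against 288 and 170 CPM in control, and Y-linked Ddx3y had 0 and 2 counts against 670 and 377. Genotype and this sex-linked difference cannot be told apart in LT-HSC. In LSK and MyePro, Xist had at most 7 counts, and Ddx3y ran from 222 to 729 counts in all 4 libraries.

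**Figure D1:**
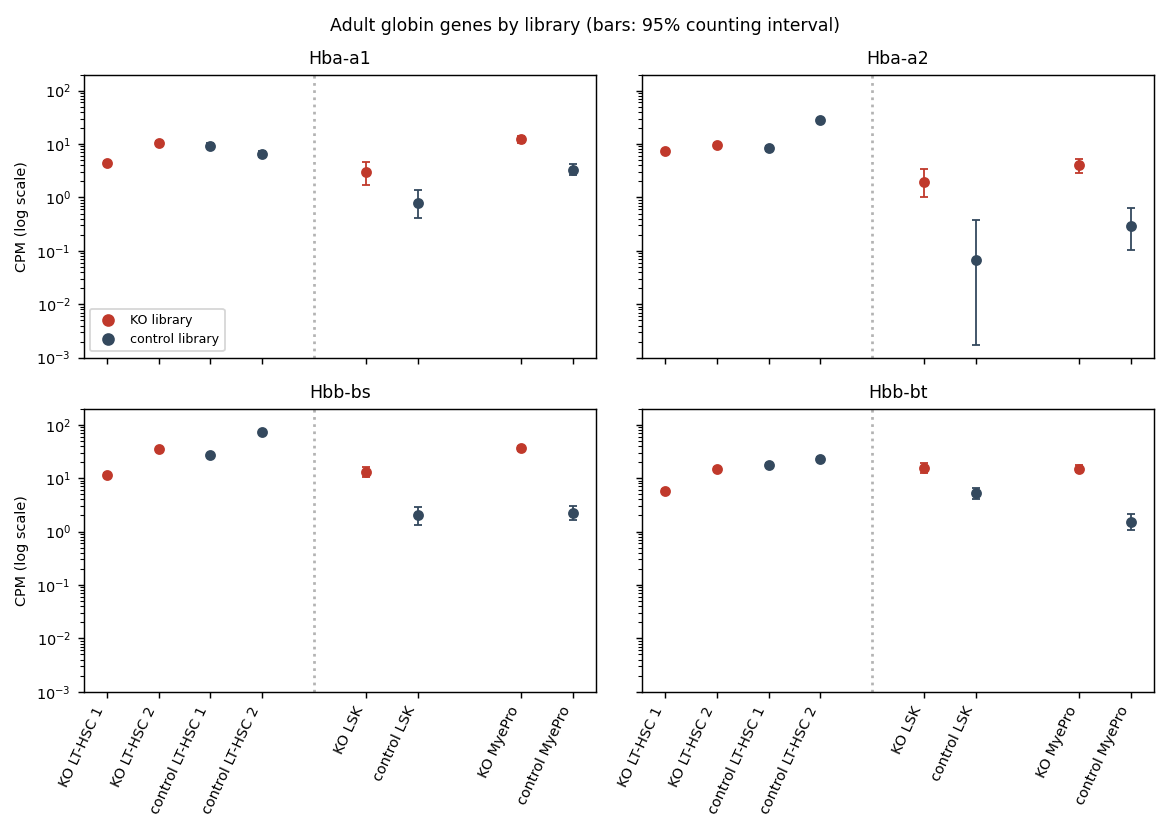
Level of each adult globin gene in each library, in CPM on a log scale, with KO libraries in red and control libraries in dark blue; bars are 95% counting intervals, and the dotted line separates the amplified LT-HSC libraries from LSK and MyePro. In LSK and MyePro the KO point lies above the control point for all 4 genes, and in LT-HSC the red and blue points overlap for all but Hbb-bt.

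In LSK all 4 genes had more CPM in KO than in control. Together they took 206 counts (33.6 CPM) in KO LSK and 121 counts (8.08 CPM) in control LSK, a 4.16-fold higher level (interval 3.31 to 5.25). The counts behind this are small in both libraries. The beta gene Hbb-bs stood at 13.2 CPM (81 counts) in KO LSK and 2.00 CPM (30 counts) in control LSK, 6.59-fold higher (4.29 to 10.4). The second adult beta gene, Hbb-bt, stood at 15.5 CPM (95 counts) and 5.21 CPM (78 counts) in KO and control LSK, 2.98-fold higher (2.18 to 4.07). The beta genes thus carried most of the globin reads of both LSK libraries. Hba-a1 had 18 counts (2.94 CPM) in KO LSK and 12 counts (0.801 CPM) in control LSK, 3.66-fold higher (1.67 to 8.34). Hba-a2 had 12 counts (1.96 CPM) in KO LSK and 1 count (0.0668 CPM) in control LSK, a ratio of 29.3 with an interval of 4.34 to 1253. Summed over the alpha pair, 4.89 CPM in KO LSK stood against 0.868 CPM in control LSK (5.64-fold, 2.85 to 11.8).

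In MyePro all 4 genes again had more CPM in KO than in control, on higher counts in KO. The 4 genes together took 777 counts (67.4 CPM) in KO MyePro and 154 counts (7.40 CPM) in control MyePro, 9.11-fold higher (7.65 to 10.9). Hbb-bs stood at 36.1 CPM (416 counts) in KO MyePro and 2.26 CPM (47 counts) in control MyePro, 16.0-fold higher (11.8 to 22.1). Hbb-bt stood at 15.1 CPM (174 counts) and 1.54 CPM (32 counts) in KO and control MyePro, 9.82-fold higher (6.70 to 14.8). The KO library was the higher for the alpha genes as well, by less for Hba-a1. Hba-a1 stood at 12.2 CPM (141 counts) in KO MyePro and 3.31 CPM (69 counts) in control MyePro, 3.69-fold higher (2.75 to 5.00). Hba-a2 stood at 3.99 CPM (46 counts) and 0.288 CPM (6 counts) in KO and control MyePro, 13.8-fold higher (5.90 to 39.7). The pair sums were 13.5-fold higher for beta (10.7 to 17.3) and 4.50-fold higher for alpha (3.43 to 5.97), with intervals that do not overlap.

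With a prior count of 2, all 4 genes lay past 2-fold on the higher side in KO LSK, as did 10.4% of all genes averaging 1 CPM or more, and in KO MyePro, as did 18.2%. On the lower side lay 0 of the 4 (6.31% of genes in LSK and 7.65% in MyePro). Hba-a1 and Hba-a2 in LSK, and Hba-a2 in MyePro, had means under 5 CPM. With 1 library per group no difference in LSK or MyePro has a replicate check, and the values compare these libraries only. In such bulk samples fewer cells of a type and less RNA per cell cannot be told apart.

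The step to MyePro was seen separately in each genotype. In KO the 4 genes together stood at 67.4 CPM in MyePro and 33.6 CPM in LSK, 2.00-fold higher (1.72 to 2.35). In control they stood at 7.40 CPM in MyePro and 8.08 CPM in LSK, a ratio of 0.915 with an interval of 0.717 to 1.17 that includes 1. Ordered by summed CPM the libraries ran KO MyePro, KO LSK, control LSK, control MyePro, and the last pair did not differ beyond counting error. Below the sum, the alpha and beta genes of control parted. The alpha pair stood at 3.60 CPM in control MyePro and 0.868 CPM in control LSK, 4.15-fold higher (2.28 to 8.15), while the beta pair stood at 3.79 CPM in control MyePro and 7.21 CPM in control LSK, a ratio of 0.526 (0.388 to 0.710). Hbb-bt alone stood at 1.54 CPM in control MyePro against 5.21 CPM in control LSK, a ratio of 0.295 (0.189 to 0.451), and Hbb-bs at 2.26 against 2.00 CPM, a ratio of 1.127 (0.698 to 1.85). In KO the alpha pair stood at 16.2 CPM in MyePro and 4.89 CPM in LSK (3.31-fold, 2.24 to 5.05) and the beta pair at 51.2 and 28.7 CPM (1.78-fold, 1.50 to 2.12). Hbb-bt alone stood at 15.1 CPM in KO MyePro and 15.5 CPM in KO LSK, a ratio of 0.974 (0.754 to 1.26), and its log2 ratio of -0.038 turned to 0.091 with TMM factors, 0.087 with RLE factors and 0.015 without ribosomal RNA.

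For MyePro against LSK, Hba-a1 and Hbb-bs lay past 2-fold on the higher side in KO, as did 5.15% of genes averaging 1 CPM or more, and 0 of the 4 on the lower side (4.47% of genes). Hba-a2 in KO lay at the edge, with a log2 ratio of 0.95, and past 2-fold with TMM factors (1.07), RLE factors (1.07) or a prior count of 0.5 (1.01). In control, Hba-a1 was at least 2-fold higher (3.48% of genes) and Hbb-bt at least 2-fold lower (11.9% of genes). Hba-a2, with 6 counts in control MyePro and 1 count in control LSK, was under that minimum (ratio 4.31, interval 0.523 to 198). The difference between genotypes in this step rests on 1 library per group and was not tested.

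**Figure D2:**
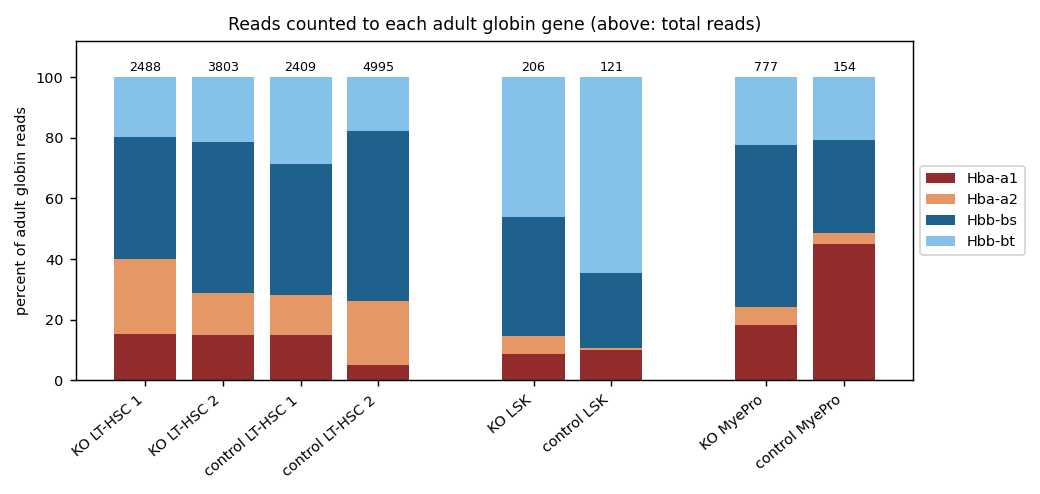
Percent of adult globin reads counted to each of the 4 genes in each library, stacked to 100, with the total number of adult globin reads above each bar. The 2 beta genes (blue) hold 51.3% of the reads in control MyePro and 59.9% to 89.3% in the other 7 libraries.

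The make-up of the globin reads differed between KO and control MyePro. Beta reads were 75.9% of the adult globin reads in KO MyePro (72.8 to 78.9) and 51.3% in control MyePro (43.1 to 59.4). In LSK they were 85.4% in KO (79.9 to 89.9) and 89.3% in control (82.3 to 94.2), intervals that overlap. The shares of reads in a library are not ratios of molecules, since transcript lengths were not used here and reads with several alignments are missing. Within the beta pair, Hbb-bs took 70.5% of reads in KO MyePro (66.6 to 74.2) against 59.5% in control MyePro (47.8 to 70.4), and 46.0% in KO LSK (38.5 to 53.7) against 27.8% in control LSK (19.6 to 37.2). Hbb-bt thus gave the larger part of the beta reads in control LSK. Within the alpha pair, Hba-a1 took 75.4% in KO MyePro (68.6 to 81.4) against 92.0% in control MyePro (83.4 to 97.0). In LSK it took 60.0% of 30 reads in KO and 92.3% of 13 reads in control, with overlapping intervals (40.6 to 77.3 and 64.0 to 99.8). Across the near-identical alpha copies, any such split is uncertain.

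The other globin genes were nearly silent. Of the 10 listed in these files, which include the embryonic and theta globins, cytoglobin, neuroglobin and myoglobin, at least 7 had 0 counts in each library. Hbb-y, the embryonic epsilon-like globin, had 13 counts in KO LSK (2.12 CPM) against 1 count in control LSK (0.0668 CPM), a ratio of 31.8 with an interval of 4.77 to 1350. It had 6 counts in KO MyePro and 0 in control MyePro, and the exact interval of that ratio began at 2.13. The embryonic beta-type gene Hbb-bh1 had 2 counts in KO LSK and 3 in KO MyePro, and 0 in every other library.

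**Figure D3:**
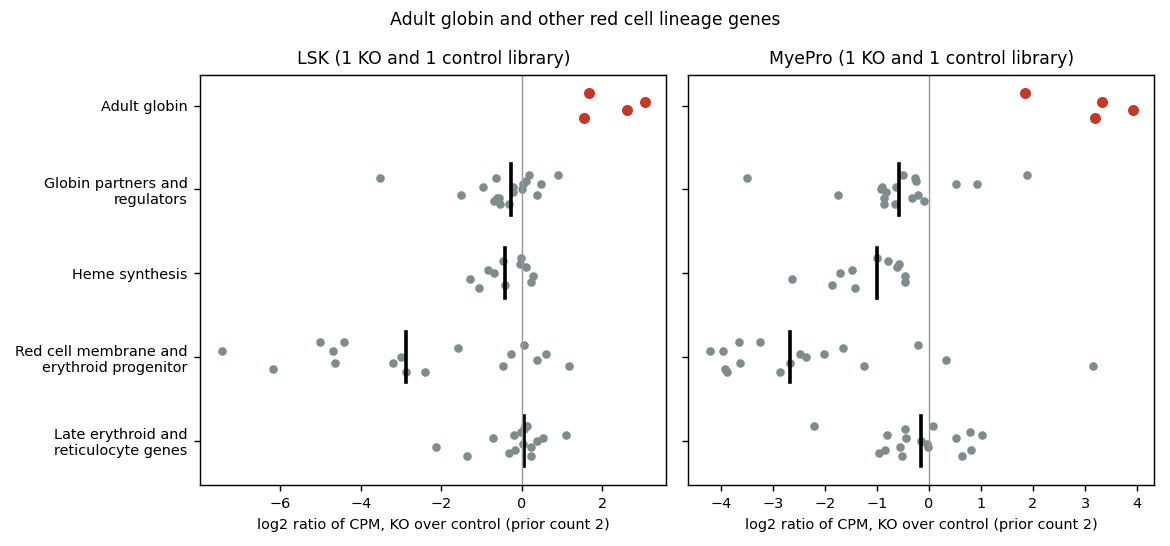
Log2 ratio of KO over control CPM (prior count 2) in LSK (left) and MyePro (right) for the 4 adult globin genes (red) and for genes of 4 red cell lists averaging 5 CPM or more in that population (grey; black bar, list median). Globin points lie between 1.54 and 3.07 in LSK and between 1.85 and 3.93 in MyePro, while the red cell membrane and erythroid progenitor median lies at -2.87 and -2.67.

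Most other red cell genes did not lie higher in KO as the globins did in LSK and MyePro. Among genes averaging 5 CPM or more, 6.17% lay past 2-fold on the higher side and 4.41% on the lower side in KO LSK, and 11.7% and 7.15% in KO MyePro. Of 17 red cell membrane and erythroid progenitor genes with that average, 11 lay past 2-fold lower in KO LSK and 1 higher (median log2 ratio -2.87, against 0.09 for all genes). In KO MyePro 14 of 17 lay lower and 1 higher (median -2.67, against -0.04). Pklr encodes the pyruvate kinase of liver and red cells and had 0 counts in KO LSK, against 33.1 CPM in control LSK, and 8.15 CPM in KO MyePro against 154 CPM in control MyePro. Ermap, an erythroid membrane protein gene, stood at 1.14 against 97.2 CPM in KO and control LSK. The member past 2-fold higher in both populations was Cd36, a fatty acid receptor gene also expressed in platelets and macrophages, at 83.7 CPM in KO LSK against 37.1 CPM in control LSK and 131 CPM in KO MyePro against 14.6 CPM in control MyePro.

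Of 11 heme synthesis genes with that average, 0 lay past 2-fold higher in KO, and 2 lay lower in LSK (median -0.43) and 5 in MyePro (median -0.99). Cpox, which makes protoporphyrinogen, stood at 47.6 CPM in KO MyePro against 294 CPM in control MyePro, and Tfrc, the transferrin receptor that brings in iron, at 106 against 387 CPM. Alas2, the erythroid enzyme that starts heme synthesis, was too low for that average, with 7 counts in KO LSK against 3 in control LSK and 20 in KO MyePro against 14 in control MyePro. Its ratios were 5.70 (1.30 to 34.2) in LSK and 2.58 (1.24 to 5.52) in MyePro, so it stood on the same side as the globins. Slc4a1, the anion exchanger of the mature red cell, was near 0 in all 4 libraries, with 0 counts in KO LSK against 3 in control LSK and 2 in KO MyePro against 8 in control MyePro.

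For the step to MyePro, 7 of 11 heme genes and 14 of 17 red cell membrane genes lay past 2-fold higher in control MyePro than in control LSK, where 2.77% of genes did so and 7.56% lay past 2-fold lower. In KO 0 of 11 heme genes and 6 of 11 red cell membrane genes lay past 2-fold higher in MyePro than in LSK, where 2.33% of genes did so and 2.21% lay past 2-fold lower. The heme genes of KO had a median log2 ratio of 0.30, with 10 of 11 above 0, against -0.13 for all genes.

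Of 18 globin regulators, 0 lay past 2-fold higher in KO LSK and 2 lower, and 1 lay higher and 2 lower in KO MyePro (medians -0.27 and -0.57). Klf1, the activator of adult beta globin, stood at 4.89 CPM in KO LSK against 58.0 CPM in control LSK (a ratio of 0.0843, interval 0.0566 to 0.121), and at 21.0 CPM in KO MyePro against 238 CPM in control MyePro (0.0884, 0.0773 to 0.101). Gata1 stood at 51.2 against 101 CPM in KO and control LSK and at 106 against 198 CPM in KO and control MyePro. Klf1 and Gata1 were thus lower in the KO libraries of LSK and MyePro, where the globins were higher. Nfe2, of the same list, lay on the higher side, at 364.7 CPM in KO LSK against 261 CPM in control LSK. In MyePro Nfe2 stood at 326 CPM in KO and 171.1 CPM in control. Of the 18 regulators, 7 had log2 ratios above 0 in LSK and 3 in MyePro. Bcl11a, a repressor of embryonic and fetal globin genes, stood at 53.2 CPM in KO LSK against 153 CPM in control LSK and 49.7 CPM in KO MyePro against 167 CPM in control MyePro. Sox6, which acts with BCL11A on embryonic globin genes, stood at 23.3 CPM against 12.4 CPM in KO and control LSK and 17.2 against 4.56 CPM in KO and control MyePro.

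Late erythroid and reticulocyte genes had medians near that of all genes (0.04 of 16 genes in LSK and -0.16 of 17 in MyePro), with 1 past 2-fold higher and 2 lower in KO LSK, and 1 higher and 1 lower in KO MyePro. The higher member was Bpgm, the red cell enzyme that makes the hemoglobin effector bisphosphoglycerate, at 73.1 CPM in KO LSK against 33.9 CPM in control LSK and 52.9 CPM in KO MyePro against 25.9 CPM in control MyePro. Tspan33, a tetraspanin gene, stood at 5.06 against 22.7 CPM in KO and control LSK.

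Markers of several other cell types also differed between KO and control in LSK and MyePro, though lineage-positive cells had been depleted, and their part in the globin values was not tested. The 10 mature neutrophil markers summed to 330 CPM in KO LSK against 33.8 CPM in control LSK and to 758 CPM in KO MyePro against 38.3 CPM in control MyePro. Cxcr2 and Lcn2 made up most of the KO LSK sum, at 144 and 101.6 CPM in KO LSK against 22.4 and 8.88 CPM in control LSK, and S100a8 stood at 65.1 CPM in KO LSK against 0 in control LSK. The list was mixed in LSK: Ltf had 0 counts in KO LSK against 12 in control LSK, Camp 1 against 5 and Mmp9 0 against 4, while S100a9 and Retnlg were at 0 in control LSK. Camp was at 0 in both MyePro libraries.

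The counts of markers past 2-fold that follow are over those averaging 5 CPM or more, which a marker can reach through its higher library alone. Of all genes with that average, 6.17% lay past 2-fold higher and 4.41% lower in KO LSK, and 11.7% and 7.15% in KO MyePro.

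The 10 macrophage markers summed to 283 CPM in KO LSK against 123 CPM in control LSK (5 of 6 higher) and 430 CPM in KO MyePro against 134 CPM in control MyePro (6 of 7 higher), with 0 markers at 0. The 10 megakaryocyte markers summed to 830 against 698 CPM in KO and control LSK (3 of 9 higher, 1 lower) and 1591 against 179 CPM in KO and control MyePro (9 of 10 higher), with Gp6 at 0 in control MyePro. The 7 stromal and endothelial markers summed to 234 against 106 CPM and 216 against 81.0 CPM (3 of 3 higher in both), with Lepr at 0 in control LSK and KO MyePro.

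The 10 T and NK cell markers summed to 639 against 203 CPM in KO and control LSK and 645 against 200 CPM in KO and control MyePro (4 of 4 higher in both), mostly Nkg7 and Gzmb. Cd3d was at 0 in KO LSK and Cd3g in KO MyePro, against Cd3e, Cd3g, Trac and Gzma in control LSK and Gzma and Ncr1 in control MyePro. The 8 B cell markers summed to 53.8 against 159 CPM and 16.5 against 122 CPM (2 of 2 lower in both), with Ms4a1 and Ebf1 at 0 in all 4 libraries.

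In LT-HSC no adult globin gene passed a test between genotypes, and their sum was lower in KO under each scaling of all 4 libraries, by a margin that rested on control LT-HSC 2. Summed over the 4 genes, the libraries labelled KO held 29.1 and 70.3 CPM (transplants 1 and 2) and the controls 62.6 and 131 CPM. KO was the lower library within each transplant, and the groups overlapped, since KO LT-HSC 2 lay above control LT-HSC 1. These values depend on composition: ribosomal RNA entries took 74.3% of gene counts in KO LT-HSC 1 and 55.7% to 57.6% in the other 3, and with plain library totals the median log2 fold change of all genes was -0.35. With TMM factors the KO libraries held 50.2 and 55.8 and the controls 52.0 and 115 TMM-normalized CPM, so that control LT-HSC 2 alone stood apart. The log2 ratio of the group means was -0.96 in CPM and -0.66 in TMM-normalized CPM, and without control LT-HSC 2 it was -0.33 and 0.027.

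**Figure D4:**
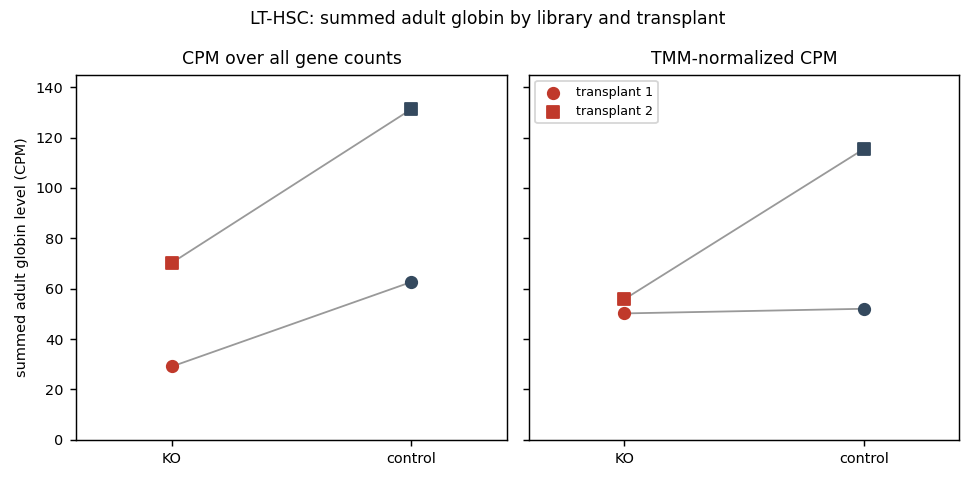
Summed adult globin level of each LT-HSC library in CPM over all gene counts (left) and in TMM-normalized CPM (right), with KO left of control and a grey line joining the libraries of a transplant (circles, transplant 1; squares, transplant 2). On the left KO lies below control in both transplants; on the right the transplant 1 libraries stand at 50.2 and 52.0 and those of transplant 2 at 55.8 and 115.

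Taken singly, Hbb-bs stood at 20.1 and 27.9 TMM-normalized CPM in the libraries labelled KO of LT-HSC and 22.4 and 64.6 in control (log2 fold change -0.86 ± 0.498, SE, n = 2 per group; by edgeR's quasi-likelihood test, with Benjamini-Hochberg adjustment over 12844 genes, adjusted p = 1.00). Hbb-bt stood at 9.98 and 11.9 in KO and 14.9 and 20.5 in control (-0.69 ± 0.378; adjusted p = 1.00, same edgeR test). It was the member whose groups did not overlap in TMM-normalized CPM, as was so on the lower side for 13.9% of all genes tested, and the same held in CPM. Both KO libraries lay above both controls for 0 of the 4 (13.8% of genes). KO lay below control within both transplants for Hbb-bs and Hbb-bt in TMM-normalized CPM (24.4% of genes), and for Hba-a2 as well in CPM (36.7%). Hba-a2 stood at 12.5 and 7.72 in KO and 6.97 and 24.7 in control (-0.65 ± 0.627), higher in KO of transplant 1 and lower in KO of transplant 2. Hba-a1 stood at 7.62 and 8.29 in KO and 7.68 and 5.68 in control (0.25 ± 0.481, and -0.082 with library totals). The alpha and beta genes thus overlapped between genotypes except for Hbb-bt. These fold changes and SEs come from the fit that leaves out the pairing by transplant. With transplant as a block they were -0.69 ± 0.318 for Hbb-bs, -0.68 ± 0.370 for Hbb-bt, -0.42 ± 0.610 for Hba-a2 and 0.27 ± 0.516 for Hba-a1.

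None of the 4 passed the edgeR threshold of an adjusted p under 0.05, as 0.0156% of the genes tested did, and 0 passed with transplant as a block (0.0311% of genes) or with DESeq2 (0.109%). At an unadjusted p under 0.05 the count was also 0 with edgeR (2.29% of genes), with the block (3.94%) and with DESeq2 (3.41%). Without control LT-HSC 2 the log2 fold changes of Hba-a2 and Hbb-bs turned to 0.55 and 0.11. Beta reads made up 59.9% and 71.3% of the adult globin reads in the libraries labelled KO and 71.8% and 73.7% in control. Hba-a1 took 37.9% and 51.8% of the alpha reads in KO and 52.4% and 18.7% in control, a spread within control wider than that between genotypes.

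The other red cell lists of LT-HSC had negative medians, with 0 members past the adjusted threshold with edgeR, with the transplant block or with DESeq2. All 12 heme synthesis genes tested had negative log2 fold changes (median -0.69, against 0.00 for all genes), 2 of them at an unadjusted p under 0.05 with edgeR and 4 with DESeq2, as were 1.28% and 2.02% of all genes on the lower side. Of 21 red cell membrane and erythroid progenitor genes 19 were negative (median -1.11), with 5 at an unadjusted p under 0.05 with edgeR and 6 with DESeq2. Car2, a carbonic anhydrase gene, stood at 160 and 146 TMM-normalized CPM in KO and 282 and 125 in control, and Epb41, protein 4.1 of the membrane skeleton, at 92.6 and 69.5 in KO and 82.8 and 103 in control. Late erythroid genes (10 of 17 negative, median -0.06) and globin regulators (12 of 18 negative, median -0.08) lay close to all genes. Klf1 stood at 3.53 and 1.130 TMM-normalized CPM in KO and 6.45 and 4.58 in control. Slc4a1 stood at 4.13 and 19.8 in KO and 20.4 and 31.2 in control.

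Markers of mature blood cells in LT-HSC differed between transplants. The neutrophil list summed to 96.9 and 320 CPM in KO and 90.5 and 415 CPM in control of transplants 1 and 2, and the B cell list to 19.2 and 136 CPM in KO and 49.2 and 415 CPM in control. In CPM the transplant 2 library of each genotype was the higher for both lists, as it was for summed globin. The same held for the macrophage, T and NK cell, stromal, heme synthesis and late erythroid lists. It did not hold for the megakaryocyte, red cell membrane, globin regulator or stem and progenitor lists. CPM here depends on composition, and with TMM factors summed globin was 50.2 and 55.8 in the KO libraries. The part of such cells in the globin values was not tested. Macrophage, megakaryocyte, T and NK cell, and stromal lists summed to 14.7 to 45.7, 172 to 445, 7.57 to 60.4 and 27.6 to 46.0 CPM in KO and 18.3 to 41.9, 275 to 495, 16.5 to 63.4 and 58.2 to 61.2 CPM in control. The stem and progenitor markers Kit, Ly6a (which encodes SCA-1), Procr, Slamf1, Cd34 and Flt3 were detected in every LT-HSC and LSK library. Procr (13.5 against 13.6 CPM), Kit (423.5 against 482.6 CPM) and Cd34 (917 against 748 CPM) lay within 2-fold between KO and control LSK. Ly6a lay past 2-fold higher in KO (67.0 against 31.0 CPM), as did 6.17% of genes averaging 5 CPM or more. Flt3 (38.7 against 121 CPM) and Slamf1 (6.5 against 14.1 CPM) lay past 2-fold lower (4.41% of genes).

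The genes whose levels followed summed adult globin most closely were sought among 7724 genes averaging 5 CPM or more in both sets of libraries. The likeness was Pearson's r of log2(CPM + 1) over the 8 libraries, centred within the 4 LT-HSC and within the 4 LSK and MyePro libraries. The 5 highest were Csf2rb2, which encodes a beta chain of the mouse interleukin-3 receptor (r = 0.981), Ankrd16 (0.977), Prr13 (0.975), Sirpa, an inhibitory receptor of myeloid cells (0.967), and 2500004C02Rik (0.964). Csf2rb2 stood at 85.6 CPM in KO LSK against 20.2 CPM in control LSK, at 210 CPM in KO MyePro against 13.7 CPM in control MyePro, and at 3.67 and 16.5 CPM in KO LT-HSC against 7.43 and 22.8 CPM in control LT-HSC. The median r was 0.29 over all genes, -0.27 over 11 red cell membrane and erythroid progenitor genes, 0.15 over 10 heme synthesis genes and 0.46 over 13 late erythroid and reticulocyte genes. Among the other lists with 3 genes or more it was -0.03 over 16 globin regulators, 0.15 over 6 stem and progenitor markers, 0.59 over 3 macrophage, 0.77 over 7 megakaryocyte and 0.91 over 4 neutrophil markers. Only 4 of the 10 neutrophil markers entered. A marker can reach the average through KO LSK and KO MyePro alone, where globin was also higher, so these medians lend no support. S100a9 stood at 15.7 and 63.4 CPM there against 0 and 0.672 CPM in control LSK and MyePro. These are descriptions over 8 libraries that differ in depth and ribosomal RNA share, which enter every gene's CPM.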

How the data were processed

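RNA was measured by polyA-selected RNA-seq in 8 of the 14 samples, and the 6 ChIP-seq samples were not analysed here. Each library's deposited file holds whole-number gene counts that were not normalized. The submitters' processing notes name build mm10 and HTSeq 0.6.0, bedtools 2.17.0, TopHat2, CASAVA 1.8.4, DESeq 3.0 and Picard 1.126; the sources used here give no role, order, annotation or strand setting for them. LSK and MyePro entries are symbols, and 37607 of 39179 LT-HSC IDs (96.0%) matched a symbol.

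Entries that name no gene, ERCC entries and the unexplained entry DPY30-SPKIG were left out of library sizes. Reads without a feature were 16.7% to 26.0% (LT-HSC) and 2.40% to 6.25% (LSK and MyePro) of file totals. CPM used gene counts. Log2 ratios used a prior count of 2, and folds of single libraries none, with exact conditional intervals (scipy 1.17.1). LT-HSC were fitted with edgeR 4.0.16 (R 4.3.3; TMM, at least 1 CPM in at least 2 libraries, quasi-likelihood test, two-sided), with DESeq2 1.42.0 as an alternative. The fit was also run on simulated counts. These held no transplant effect and none of the ribosomal RNA difference between the libraries, so that run says nothing of either. Same-numbered LT-HSC libraries share a transplant per the labels, which pairs them; their deviations from group means correlated at 0.292 over 12844 genes. No 2 libraries were identical. Pools are the replicates. Ribosomal RNA entries were the mitochondrial rRNA genes, Gm26924, Gm42418 and entries with ribosomal RNA symbols. In LSK and MyePro, but not in LT-HSC, genes annotated as rRNA were added.

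The members and lists were chosen with earlier results of these data known. The naming rule took the 4 globins and Dpy30, then up to 4 members of each list (the largest ratios, or past the threshold, or else the 2 most highly expressed) and the 5 most alike genes. Named after their values were seen were Cd36, Alas2, Slc4a1, Gata1 in MyePro, Nfe2 in LSK, Klf1 in LT-HSC, Xist, Ddx3y, Hba-ps4 and the markers listed at 0. The single values of 1 B cell marker are not reported here.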

Additional observations from a re-analysis of the deposited data

Results flagged for a closer look

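For Hba-a2, Hbb-bs, Hbb-bt and the sum of the 4 genes, KO lay above control in LSK and MyePro, while both libraries labelled KO lay below the control mean in LT-HSC. In TMM-normalized CPM the log2 ratio of the sum was 1.90 in LSK and 3.12 in MyePro, against -0.74 and -0.58 in KO LT-HSC 1 and 2. Hbb-bs had 2.48 in LSK and 3.89 in MyePro against -1.12 and -0.64, and Hbb-bt had 1.41 and 3.15 against -0.83 and -0.57. Hba-a2 had 2.97 in LSK and 3.28 in MyePro against -0.34 and -1.03 in LT-HSC. The difference between populations was not tested, since LSK and MyePro have 1 library per group. In LT-HSC the values of Hba-a2, Hbb-bs and the sum rest on control LT-HSC 2, without which each turned positive with TMM factors. Within transplants, the TMM log2 differences of KO from control were 0.84 and -1.68 for Hba-a2 and -0.05 and -1.05 for the sum in transplants 1 and 2, so Hba-a2 was higher in KO in transplant 1.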

How the results depend on the processing

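Summed adult globin kept its direction under each scaling and prior count tried: log2 ratios of 1.90 to 2.05 in LSK, 3.12 to 3.23 in MyePro, and 0.999 to 1.129 and -0.19 to -0.07 for MyePro against LSK in KO and control. In LT-HSC it was -0.96, with -1.003 as the mean within transplants (the replicate block), -0.59 with ERCC factors and -1.74 to -0.33 leaving out each library; with TMM factors, tried after seeing the data, leaving out each library gave -1.12 to 0.027, the cause of which was not tested. Hbb-bt for MyePro against LSK in KO turned from -0.038 to 0.091 (TMM; RLE 0.087) and 0.015 (without ribosomal RNA). In LT-HSC, Hba-a1 was -0.082 with library totals, and leaving out each library gave -1.28 to 0.55 for Hba-a2 and -1.42 to 0.11 for Hbb-bs (both positive without control LT-HSC 2) and -1.20 to 0.40 for Dpy30 (0.40 without KO LT-HSC 2, 0.16 without control LT-HSC 1). The LT-HSC genes past the threshold numbered 2, and 4 with the replicate block, library totals or no filter, 1 with ERCC factors, 14 with DESeq2 and 0 to 5 leaving out each library. The block changed no call of an adult globin gene (adjusted p = 1.00 for each of the 4, edgeR). With a minimum of 1 CPM the genes past 2-fold numbered 2123 (LSK), 3243 (MyePro), 1241 (KO, MyePro against LSK) and 1861 (control), in place of 1095, 1929, 473 and 1034. TMM moved the share of higher calls from 58.4% to 48.1% in KO against control LSK and from 51.4% to 67.3% in KO MyePro against LSK. The LSK values rest on 13 to 30 alpha reads and 108 to 176 beta reads per library. Of the 5 genes most like the globins, 5 remained with a pseudocount of 0.1, 2 with TMM (tried after seeing the data) and 1 with Spearman's rho.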

Other observations

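The alpha globin pseudogene Hba-ps4 had 82 counts in KO LT-HSC 2 and 9 in KO LT-HSC 1, against 13 and 0 in control LT-HSC 1 and 2, and at most 1 count in each LSK and MyePro library. Hbb-y had 21 counts in KO LT-HSC 2 and 0 in the other 3 LT-HSC libraries.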
